A study of Canis lupus familiaris and Dasypus novemcinctus and Ornithorhynchus anatinus with 3 samples.

Results

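Genes for serpins, cystatins and related protease inhibitors were described in the pregnant endometrium, the lining of the uterus, of dog, armadillo and platypus. Members were taken by gene name alone: names starting with SERPIN, CST and a number, SPINK or WFDC, together with CSTA, CSTB, CD109, PZP, A2ML1 and PI15, without SERPING1, CST6 and WFDC2, and listed in at least 2 of the 3 species tables. This gave 26 members out of 12474 gene symbols found in 2 or more tables. They comprised 9 secreted serpins, 1 serpin that is a collagen chaperone, 7 clade B serpins, 3 cystatins, 2 genes of the alpha-2-macroglobulin family, 1 Kazal-type inhibitor, 2 WAP-domain genes and PI15. None of the 26 members is of the Kunitz type, so the set is called here by its rule. Of the members, 11 were listed in all 3 tables and 15 in 2 tables. All 26 were listed in dog, 18 in armadillo and 19 in platypus.

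Each species was represented by 1 messenger RNA library, labelled only as endometrium in pregnancy. The labels give no breed, strain, age, stage of pregnancy, treatment or number of animals, so species, animal and stage cannot be told apart. The tables held 13625465 reads for dog, 13218476 for armadillo and 2243556 for platypus. Levels are reads per 1000000 of the summed gene counts (CPM) with exact Poisson 95% intervals, which cover counting error only, because no library has a replicate. A count of 0 allows up to 3 reads, or 0.220 CPM for dog, 0.227 for armadillo and 1.34 for platypus. The armadillo table holds no gene at 0, so a gene missing from it has no value here. Counts are not corrected for the length of the gene models, which can differ between species.

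Serpins are protease inhibitors that work by a suicide mechanism. The target enzyme cuts an exposed loop of the serpin and is then trapped in a covalent complex. Secreted serpins control clotting, fibrinolysis and matrix breakdown, clade B serpins act mostly inside cells, and a few members of the fold inhibit nothing. Cystatins block papain-like cysteine proteases such as the lysosomal cathepsins, Kazal and WAP domains bind serine proteases, and proteins of the alpha-2-macroglobulin family are large proteins with a bait region that proteases cut. In the pregnant uterus such inhibitors are known as counterparts of the proteases that remodel the matrix and of those used by invading trophoblast.

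In dog against armadillo, inhibitor genes that differed were higher in armadillo. A member was called different where the fold on the scale of CPM + 1 was at least 4 and the higher library reached 5 CPM. By this rule 7 of 18 members (38.9%) were higher in armadillo, against 13.2% of all 8854 matched genes, and 0 of 18 were higher in dog, against 12.6% of all genes. The 7 were SERPINE2, SERPINF1, SERPINI1, SERPINB9, A2ML1, CD109 and PI15. The median log2 fold of dog over armadillo was -1.46 over the 18 members and 0.005 over all matched genes. With library totals taken over matched genes alone, 8 members were higher in armadillo and 1 in dog, against 14.1% and 14% of all genes. Only genes with an armadillo read could enter this pair, while zeros in dog stayed in. CSTB and WFDC1, at 163 and 8.66 CPM in dog, are not listed in armadillo and could not be called. With genes at 0 left out, 6 of 14 members were higher in armadillo, against 12.9% of all genes, and 0 in dog, against 13.3%.

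In dog against platypus the calls ran in both directions. Higher in dog were 3 of 19 members (15.8%), CSTB, SERPINB5 and WFDC1, where 32.0% of all 9026 matched genes were higher in dog. Platypus was higher for 4 of 19 (21.1%), SERPINF1, SERPINF2, SERPINC1 and SERPINB7, where 9.93% of all genes were. For members the log2 fold of dog over platypus had a median of 0.00, against 0.61 for all genes, and 5 members were at 0 in both libraries. In armadillo against platypus, 3 of 11 members (27.3%) were higher in armadillo, SERPINE2, SERPINI1 and PI15, against 36.1% of all 7296 matched genes. Another 3 of 11 were higher in platypus, SERPINF2, SERPINC1 and SERPINB7, against 11.0% of all genes. For members the log2 fold of armadillo over platypus had a median of 0.90, against 1.06 for all genes. Each library enters 2 of the 3 comparisons, so they are not independent of one another. Of the 26 members, 13 were called in at least 1 comparison, against 47.9% of the 12474 symbols found in 2 or more tables, so this count is near the background.

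**Figure D1:**
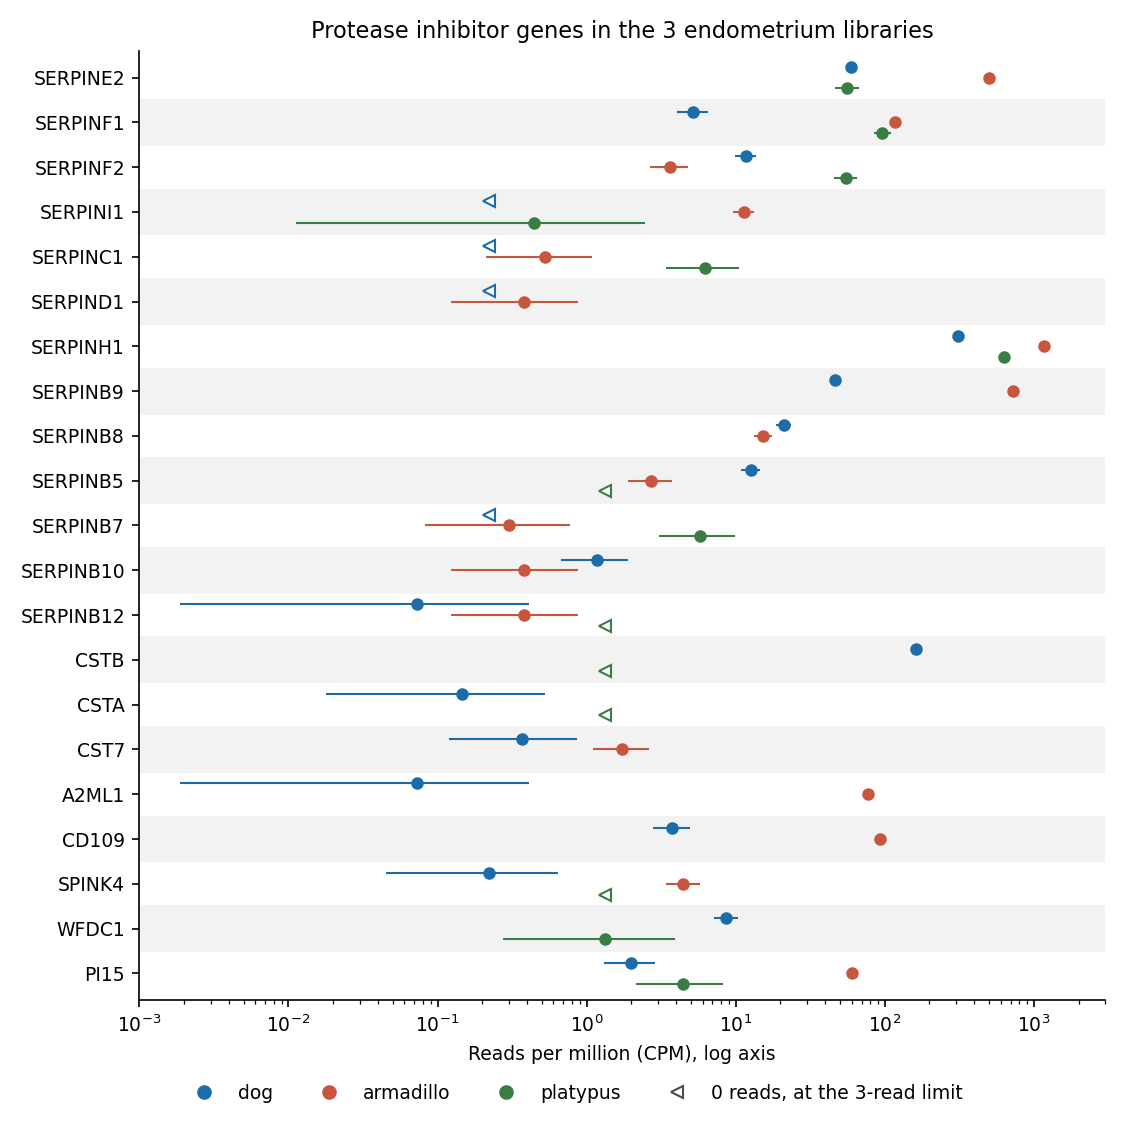
Level of each of the 21 members with at least 1 read, in CPM on a log axis. Points are libraries (blue dog, red armadillo, green platypus), bars are exact 95% counting intervals, open triangles mark 0 reads at the limit of 3 reads, and no mark means that the gene is not listed. Armadillo points lie to the right for SERPINE2, SERPINB9, A2ML1, CD109 and PI15, and platypus points for SERPINF2, SERPINC1 and SERPINB7.

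**Figure D2:**
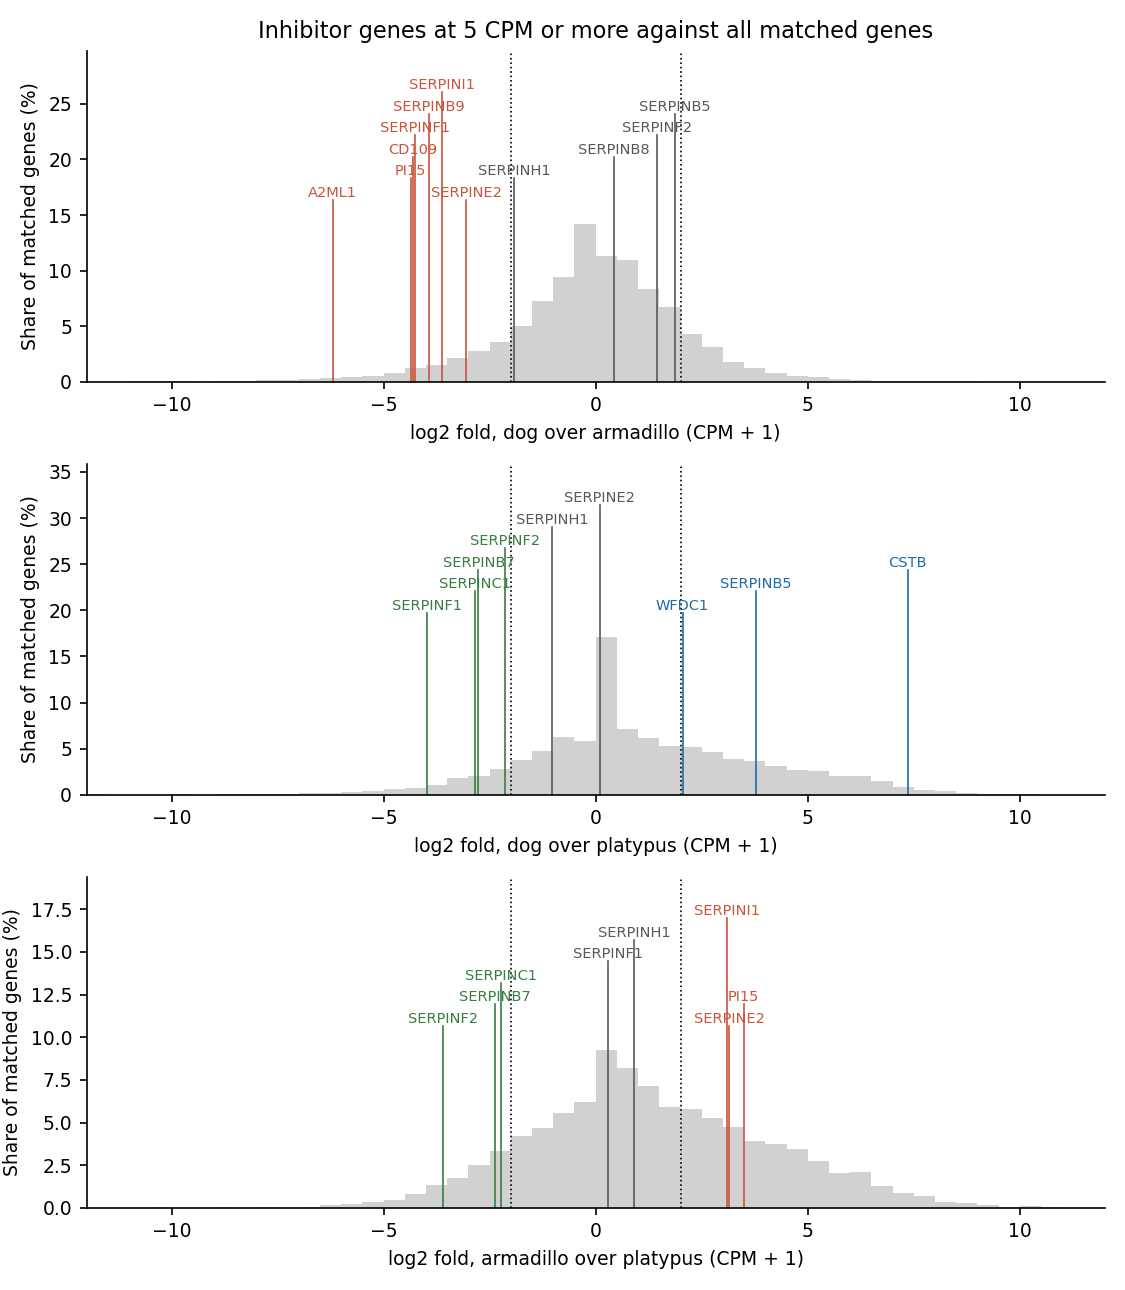
Log2 fold of CPM + 1 in each pair of libraries for members at 5 CPM or more in either (labelled lines), over the distribution of all matched genes (grey bars, percent of genes). Lines are coloured by the higher library where a member was called (blue dog, red armadillo, green platypus) and grey otherwise; dotted lines mark 4-fold. For dog over armadillo the 7 coloured lines all lie on the armadillo side.

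Among members listed in all 3 tables, armadillo was the highest library for 7 of 11, platypus for 3 and dog for 1. Over all 6351 genes listed in 3 tables the shares were 37.6% for armadillo, 22.9% for platypus and 39.5% for dog. Genes without an armadillo read could not enter these counts, whereas zeros in dog and platypus stayed in. The intervals of the highest and the next library did not overlap for 10 of these, the exception being SERPINB12, with 1 dog read, 5 armadillo reads and 0 platypus reads. Among all genes listed in 3 tables the top intervals were apart for 77.0%. Dog was highest only for SERPINB5 among these 11.

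SERPINE2 encodes protease nexin-1, a cell-surface and matrix inhibitor of thrombin and of both plasminogen activators. Its level was 59.9 CPM (95% interval 55.8 to 64.1) in dog, 505 (493 to 517) in armadillo and 56.2 (46.8 to 66.9) in platypus. Armadillo stood alone, at 8.43-fold (7.84 to 9.08) the dog level and 8.99-fold (7.54 to 10.8) the platypus level. The intervals of dog and platypus overlapped, and the direction between these libraries turned with scaling, from a log2 fold of dog over platypus of 0.09 to -0.49 with median-of-ratios factors.

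SERPINF1 encodes pigment epithelium-derived factor, a serpin that inhibits no protease and is known as a factor against vessel growth. It stood at 5.21 CPM (4.07 to 6.57) in dog, 118 (112 to 124) in armadillo and 96.7 (84.3 to 111) in platypus. Here dog was the low library, 22.6-fold (17.8 to 29.1) below armadillo and 18.6-fold (14.1 to 24.6) below platypus. Armadillo and platypus differed by 1.22-fold (1.06 to 1.41), which was not called.

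The gene next to it, SERPINF2, encodes alpha-2-antiplasmin, the main plasma inhibitor of plasmin. Its levels were 11.7 CPM (9.93 to 13.6) in dog, 3.63 (2.68 to 4.82) in armadillo and 54.8 (45.6 to 65.4) in platypus, so that armadillo was lowest and platypus highest. Platypus was 4.70-fold (3.68 to 5.98) above dog and 15.1-fold (10.7 to 21.5) above armadillo. In the dog RefSeq gene table (assembly UU_Cfam_GSD_1.0, used only for gene order, since the build behind the counts is not given in the sources used here) SERPINF2 and SERPINF1 have 0 protein-coding genes between them. The number of SERPINF1 reads per SERPINF2 read, in which library scaling cancels, was 0.447 (0.333 to 0.594) in dog, 32.4 (24.3 to 44.1) in armadillo and 1.76 (1.41 to 2.22) in platypus. These 2 neighbours thus differed in relation to each other between all 3 libraries by more than counting error, although gene model lengths also enter the ratio.

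SERPINI1 encodes neuroserpin, an inhibitor of tissue plasminogen activator best known from neurons. It had 0 reads in dog, 150 reads or 11.3 CPM (9.60 to 13.3) in armadillo and 1 read or 0.446 CPM (0.0113 to 2.48) in platypus. The armadillo level was at least 51.5-fold higher than in dog and 25.5-fold (4.50 to 1012) the platypus level. SERPINC1, the thrombin inhibitor antithrombin, went the other way, with 0 reads in dog, 7 reads or 0.530 CPM (0.213 to 1.09) in armadillo and 14 reads or 6.24 CPM (3.41 to 10.5) in platypus. Platypus was at least 28.3-fold above dog and 11.8-fold (4.45 to 34.5) above armadillo, from few reads. Antithrombin is a plasma protein made mainly in liver. Of the liver and plasma protein markers, the 4 listed in both dog and platypus (TTR, AHSG, AMBP and HPX) were at 0 in both. The 2 listed in both armadillo and platypus (APOA1 and FGG) summed to 1.66 CPM in armadillo and were at 0 in platypus. The 2 listed in both dog and armadillo had 66.9 and 90.8 CPM (TF) and 5.43 and 0.0757 CPM (APOB). Listed in platypus alone, APOH had 3 reads and ALB, FGA, FGB and VTN had 0. The part of plasma or liver RNA in the SERPINC1 reads was not tested.

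The remaining secreted serpins were near or at 0. SERPIND1, or heparin cofactor II, had 0 reads in dog and 5 in armadillo. Kallistatin (SERPINA4), corticosteroid-binding globulin (SERPINA6) and vaspin (SERPINA12) had 0 reads in dog and in platypus.

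SERPINH1 encodes HSP47, a serpin of the endoplasmic reticulum that folds collagen and inhibits no protease. It stood at 309 CPM (300.0 to 319) in dog, 1176 (1158 to 1195) in armadillo and 629 (597 to 663) in platypus. Armadillo was highest, 3.80-fold (3.68 to 3.94) above dog and 1.87-fold (1.77 to 1.98) above platypus, and platypus was 2.04-fold (1.92 to 2.16) above dog. None of these passed the limit of 4-fold, but the difference between dog and armadillo did with median-of-ratios scaling, where its log2 fold went from -1.92 to -2.24. Its client COL3A1, the chain of type III collagen, stood at 294 CPM in platypus, 535 in dog and 7623 in armadillo. The type I collagen markers, listed in armadillo and platypus, had 4782 and 1568.5 CPM (COL1A2) and 1895.5 and 7.58 CPM (COL1A1), and COL6A1, listed in dog and platypus, had 123 and 467 CPM. Reads of COL3A1 per SERPINH1 read were 1.73 (1.67 to 1.80) in dog, 6.48 (6.37 to 6.59) in armadillo and 0.467 (0.426 to 0.513) in platypus. The ratio was highest in armadillo and lowest in platypus. Gene model lengths enter it, and COL3A1 was chosen after its values were seen.

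The clade B serpins are close paralogs, and how reads matching several of them were counted is not given. They differed in the library that was highest. SERPINB9, an inhibitor of granzyme B that protects cells from cytotoxic lymphocytes, stood at 46.5 CPM (43.0 to 50.3) in dog and 722 (707 to 736) in armadillo, and is not listed in platypus. The difference was 15.5-fold (14.3 to 16.8). Leukocyte markers were also higher in armadillo: 4 of the 7 listed in both (CSF1R, CD68, CD2 and ITGAM) were called, with a summed level of 57.5 CPM in dog and 322 in armadillo. Among all matched genes 13.2% were called higher in armadillo. The part of leukocytes in the SERPINB9 difference was not tested. In bulk tissue, more cells of a type and more RNA per cell cannot be told apart.

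SERPINB8, an inhibitor of furin, was similar in both eutherians, at 21.1 CPM (18.7 to 23.6) in dog and 15.4 (13.3 to 17.6) in armadillo, a ratio of 1.37 (1.14 to 1.65). SERPINB5 encodes maspin, an epithelial serpin that inhibits no known protease by the usual mechanism. It had 12.6 CPM (10.8 to 14.7) in dog, 2.72 (1.91 to 3.77) in armadillo and 0 reads in platypus. Dog was 4.64-fold (3.22 to 6.84) above armadillo. On the scale of CPM + 1 this fell short of 4-fold, with a log2 fold of 1.87, and it passed with a pseudocount of 0.5 (2.02). Against platypus the dog level was at least 9.44-fold higher. Markers of simple epithelium were higher in dog in the same comparisons, 3 of 4 against armadillo (summed 2492 against 590.0 CPM) and 4 of 5 against platypus (2697 against 28.1 CPM, with ELF3 at 0 in platypus), and their part in the SERPINB5 difference was not tested. In these pairs 12.6% and 32.0% of all matched genes were called higher in dog.

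SERPINB7, or megsin, had 0 dog reads, 4 armadillo reads and 13 platypus reads, the last equal to 5.79 CPM (3.09 to 9.91). Platypus was at least 26.3-fold above dog and 19.1-fold (5.92 to 80.6) above armadillo, again on few reads. SERPINB10 had 16 reads in dog and 5 in armadillo, SERPINB12 had at most 5 reads in any library, and SERPINB2, the urokinase inhibitor PAI-2, had 0 in dog and in platypus.

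In dog gene order, 6 of these clade B members lie in 1 row of genes, starting with SERPINB8, followed by SERPINB10, SERPINB2, SERPINB7, SERPINB11, SERPINB13 and SERPINB12, and ending with SERPINB5. Per kilobase of gene length, the end genes carried the reads, with 242 reads per kilobase for SERPINB8 and 152 for SERPINB5. Next to SERPINB8, SERPINB10 had 13.4, and between the ends SERPINB13 had 3.40 and SERPINB12 0.782. SERPINB2, SERPINB7 and SERPINB11 had 0 reads.

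**Figure D3:**
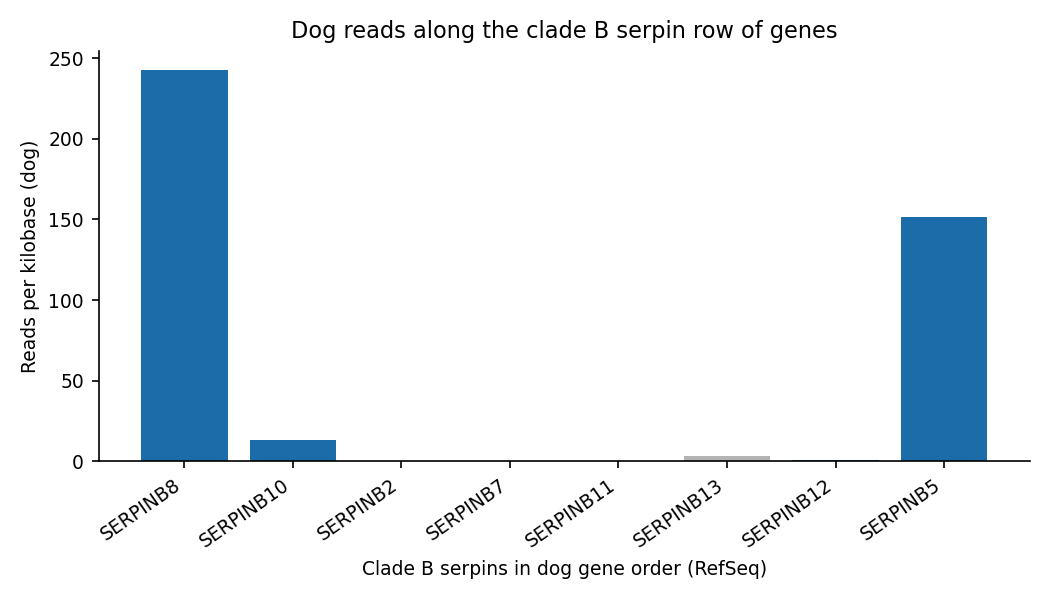
Reads per kilobase in the dog library for 8 clade B serpins in their order along the dog genome by RefSeq, with blue bars for members and a grey bar for SERPINB13, which was listed in dog only. The bars of SERPINB8 and SERPINB5 at the ends stand at 242 and 152, and the genes between them at 13.4 or less.

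The cystatin CSTB, a cytosolic inhibitor of cathepsins B, H and L, had 2222 reads or 163 CPM (156 to 170.0) in dog. It is listed at 0 in platypus, so that dog was at least 122-fold higher, and it is not listed in armadillo. Zeros in platypus also touched genes that every cell uses, with 7 of 47 ribosomal protein symbols at 0 there and 5 of 37 at 0 in dog, so a listed 0 may not mean an absent transcript. The other cystatin of the same type, CSTA, known from skin, had 2 reads in dog and 0 in platypus. CST7, an endosomal cystatin of immune cells, had 5 reads or 0.367 CPM (0.119 to 0.856) in dog and 23 reads or 1.74 CPM (1.10 to 2.61) in armadillo, and lay under 5 CPM in both.

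A2ML1, an alpha-2-macroglobulin-like inhibitor known from the upper epidermis, separated the eutherians most among the members. It had 1 read or 0.0734 CPM (0.00186 to 0.409) in dog and 1027 reads or 77.7 CPM (73.0 to 82.6) in armadillo, a ratio of 1059 with a counting interval of 190 to 41854. CD109, a membrane-anchored protein of the same family that binds TGF-beta, stood at 3.74 CPM (2.79 to 4.92) in dog and 93.3 (88.1 to 98.6) in armadillo, or 24.9-fold (18.8 to 33.7) higher. Neither is listed in platypus. A2M itself, which the naming rule leaves out, was also higher in armadillo, at 27.4 CPM against 0.294 in dog (4 reads). CPAMD8, a further relative outside the rule, had 182 CPM in platypus and 1.32 in dog, 138-fold (86.2 to 235) higher. A2M and CPAMD8 were singled out after their values were seen.

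Because A2ML1 and CSTA are known from cornified epithelium, markers of stratified epithelium were read beside them. Of 7 such markers listed in both eutherians, 1 (KRT5, at 6.66 CPM) was called higher in armadillo and 2 (DSC3 and EVPL) higher in dog, with summed levels of 304 CPM in dog and 23.5 in armadillo. The shares over all matched genes were 13.2% higher in armadillo and 12.6% higher in dog. KRT5 and KRT13 were at 0 in dog. EVPL (240.1 CPM in dog) and DSC3 (59.9) made up nearly all of the dog sum. The other 5 markers (KRT4, KRT5, KRT13, TGM3 and TP63) had higher values in armadillo, at most 7.41 CPM, and the median log2 fold of dog over armadillo for the 7 was -1.18. Markers listed in armadillo but not in dog were PPL (74.9 CPM), DSG3 (36.0), KRT14 (3.10) and TGM1 (2.95), and these could not be compared. Those listed in dog but not in armadillo were KRT15 (1 read) and IVL, FLG and CNFN (0 reads). The part of stratified epithelium in the A2ML1 difference was not tested.

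PI15, a trypsin inhibitor of the cysteine-rich secretory protein family, stood at 1.98 CPM (1.31 to 2.88) in dog, 60.3 (56.2 to 64.6) in armadillo and 4.46 (2.14 to 8.20) in platypus. Armadillo was 30.4-fold (20.8 to 46.5) above dog and 13.5-fold (7.32 to 28.3) above platypus, whereas platypus and dog had a ratio of 2.25 (0.972 to 4.80), an interval that includes equal levels. SPINK4, a Kazal-type inhibitor known from goblet cells of the gut, had 3 reads in dog, 59 reads or 4.46 CPM (3.40 to 5.76) in armadillo and 0 in platypus. Its ratio of armadillo to dog was 20.3 (6.61 to 101), but it lay just under the 5 CPM needed for a call.

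WFDC1, a secreted WAP-domain protein known as a growth inhibitor of the prostate stroma, stood at 8.66 CPM (7.17 to 10.4) in dog and 1.34 (0.276 to 3.91, 3 reads) in platypus. Its log2 fold of 2.05 lay just above the limit and dropped to 1.60, below it, with median-of-ratios scaling. The second WAP-domain member, WFDC5, had 0 reads in both tables that list it.

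Levels of different genes could be compared only in dog, where the deposited columns imply a length for each gene. Of the 26 members 17 had a read there. Per kilobase, CSTB was highest with 5771 reads (5534 to 6017) over 385 bases, followed by SERPINH1 with 3352 (3252 to 3455) over 1257 bases. These exceeded 99.1% and 97.6% of all dog genes. SERPINE2 came next with 468 (437 to 501), without overlap of the intervals down to this rank. SERPINB9 at 277, SERPINB8 at 242, WFDC1 at 199 and SERPINB5 at 152 followed, on both sides of the median of 171 over dog genes with a read, and the intervals of neighbours among these 4 overlapped. SERPINF2 had 106 and SERPINF1 50.9. PI15 had 31.8, SERPINB10 13.4 and CD109 13.1, and the lowest was A2ML1 at 0.226 (0.00571 to 1.26).

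**Figure D4:**
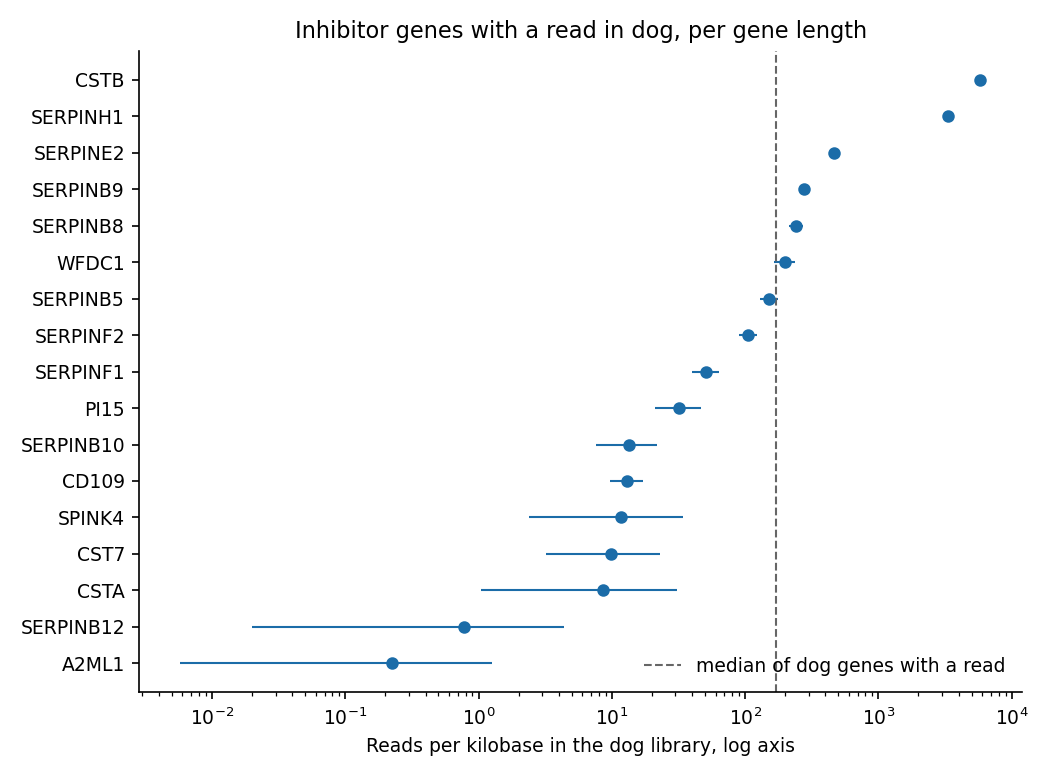
Reads per kilobase of gene length in the dog library on a log axis for the 17 members with a read, with exact 95% counting intervals; the dashed line is the median of 171 over all dog genes with a read. CSTB (5771) and SERPINH1 (3352) stand apart from the other members, and A2ML1 (0.226) is lowest.

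Serine and cysteine proteases were counted in fixed lists. Whether the members inhibit each listed protease was not tested. Of 13 serine proteases listed in both eutherians, 1 was higher in dog and 3 in armadillo, against 12.6% and 13.2% of all matched genes. ST14 (matriptase, a protease of epithelia) stood at 188 CPM in dog, 4.61 in armadillo and 0 reads in platypus. PLAT, the tissue plasminogen activator that SERPINE2 and SERPINI1 inhibit, had 32.3, 672 and 12.5 CPM in dog, armadillo and platypus, with armadillo 20.8-fold (18.9 to 23.0) above dog. PLAT was thus highest in the same library as both serpins, and SERPINE2 reads per PLAT read were 1.85 (1.65 to 2.09) in dog, 0.751 (0.728 to 0.776) in armadillo and 4.50 (2.97 to 7.04) in platypus. PRSS23 had 1269.7 CPM in armadillo and 1 read in platypus, and TMPRSS13 had 37.0 CPM in dog, 11.6 in armadillo and 0 reads in platypus. Between dog and platypus 4 of 16 serine proteases were higher in dog and 3 in platypus, against 32.0% and 9.93% of all matched genes. Between armadillo and platypus 6 of 13 were higher in armadillo and 1 in platypus, against 36.1% and 11.0%.

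**Figure D5:**
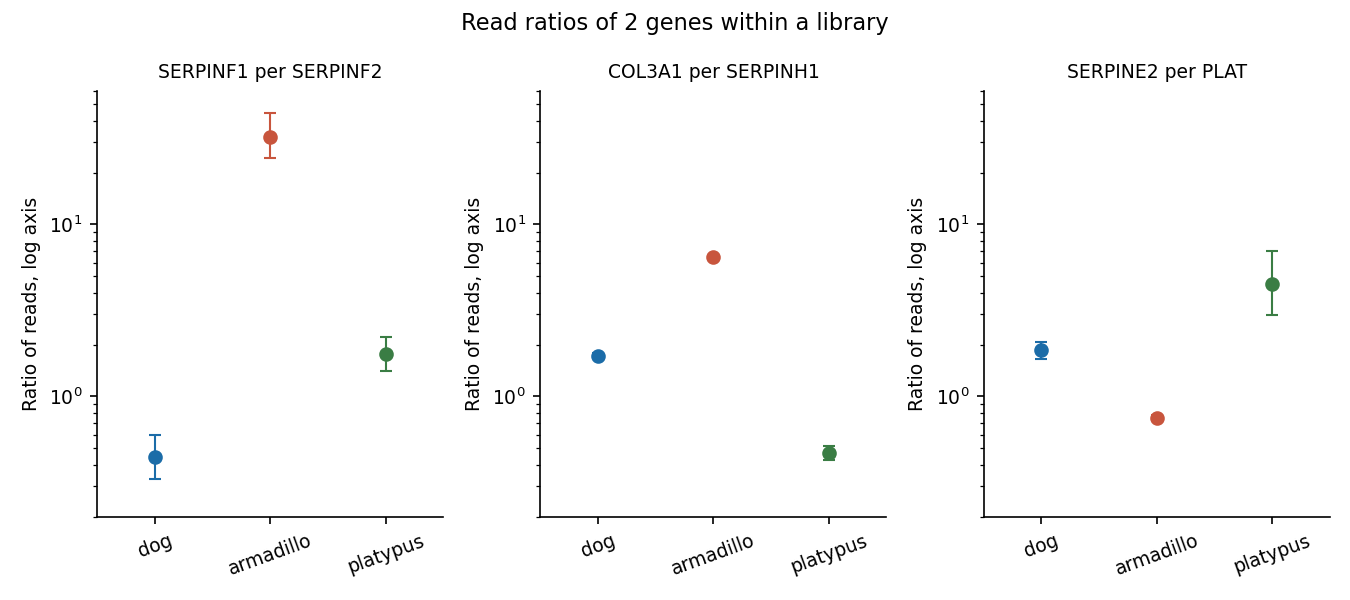
Reads of one gene per read of another within each library, on a log axis, with exact 95% intervals: SERPINF1 per SERPINF2, COL3A1 per SERPINH1 and SERPINE2 per PLAT. Library scaling cancels in these ratios; SERPINF1 per SERPINF2 runs from 0.447 in dog to 32.4 in armadillo, and SERPINE2 per PLAT is lowest in armadillo at 0.751.

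The cysteine protease list holds cathepsins, the targets of cystatins, but also calpains and caspases, so it is wider than those targets. Of its genes listed in both eutherians, 1 of 7 was higher in dog and 3 (CTSF, LGMN and CAPN2) in armadillo. Shares over all matched genes were 12.6% and 13.2%. CTSZ (cathepsin Z) stood at 4399 CPM in dog, 388 in platypus and 49.1 in armadillo. CTSB, a target of CSTB, had 282, 489 and 139 CPM and was called in no pair, and the dog library held 1.73 CTSB reads (1.64 to 1.82) per CSTB read. CTSH, another target, had 293 and 157 CPM in the eutherians and 0 reads in platypus, where CSTB was also at 0. CAPN2, a calpain subunit, had 94.5 and 672 CPM in dog and armadillo and 0 reads in platypus, and CTSC had 171 CPM in armadillo and 0 reads in platypus. In platypus 3 of 7 were lower than in dog and 5 of 8 lower than in armadillo, with 2 and 4 of the listed genes at 0 there. Over all matched genes, 32.0% were lower in platypus than in dog and 36.1% than in armadillo.

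Receptors and cofactors of the inhibitors gave 0 calls of 4 between the eutherians. Of all genes matched in this pair, 12.6% were called higher in dog and 13.2% in armadillo. SORL1, a sorting receptor, had 422 CPM in platypus against 23.0 in dog and 11.2 in armadillo. The syndecan gene SDC1 had 94.5 CPM in dog and 0 reads in platypus, LRP2 (megalin) 13.3 and 1.34, and HSPG2, or perlecan, 2612 CPM in armadillo and 78.0 in platypus. Inhibitors that the naming rule leaves out were higher in armadillo than in dog in 3 of 12 cases and in dog in 1. That one was SPINT1, a Kunitz-type inhibitor of ST14, at 169.5 CPM in dog, 20.7 in armadillo and 0 reads in platypus. ITIH5 had 163 CPM in armadillo and 2.79 in dog, CAST, the inhibitor of calpains, 201, 614 and 0.891 CPM in dog, armadillo and platypus, and APP, which has a Kunitz domain in some isoforms, 1590.3 CPM in armadillo and 0 reads in platypus. Against platypus 9 of 10 were higher in armadillo, where 36.1% of all matched genes were, and 7 of the 10 were at 0 in platypus.

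Other tissue markers differed between the libraries as well. In armadillo against dog, all 3 listed smooth muscle markers (summed 23238 against 119 CPM), all 3 endothelial markers (7834 against 79.0) and 2 of 3 stromal markers (8718 against 632) were higher in armadillo, while 3 of 4 markers of simple epithelium were higher in dog. Over all genes matched in this pair, 13.2% were higher in armadillo and 12.6% in dog. In platypus against dog, 3 of 4 smooth muscle markers were higher in platypus (summed 4298 against 120 CPM) and 1, SYNM, in dog. Of 4 stromal markers 1, LUM, was higher in platypus and 0 in dog (summed 2019 against 755 CPM). Over all genes matched in that pair, 9.93% were higher in platypus and 32.0% in dog. Markers that endometrium should hold were uneven in the platypus library. The epithelial genes EPCAM and KRT7 had 1 and 5 reads there, whereas ESRP1 had 23.2 CPM, against 58.7 in dog and 7.19 in armadillo. The endothelial genes CDH5 and CLDN5 had 20.1 and 16.9 CPM in platypus, and the platypus level of CLDN5 was 57.7-fold (20.8 to 223) above dog. Of 5 endothelial markers listed in dog and platypus, 3 (ESAM, TIE1 and PLVAP) were higher in dog and 1, CLDN5, in platypus. Shares over all matched genes were 32.0% and 9.93%, and the 5 markers summed to 231 CPM in dog and 37.4 in platypus. The 4 endothelial markers listed in both armadillo and platypus (VWF, ESAM, KDR and PLVAP) were at 0 in platypus. In armadillo these 4 summed to 9333 CPM. The part of tissue makeup in the differences of SERPINE2, SERPINF1, SERPINH1, CD109 and PI15 was not tested.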

How the data were processed

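Endometrial messenger RNA was sequenced from 1 library per species. Bowtie is named in the submitters' processing notes; the version, builds, annotation and treatment of reads matching several genes were not given in the sources used here. For dog the authors deposited estimated counts per gene, per the file headers; they equal mapped bases divided by 34 (within 0.01 reads for all 19290 genes), and 516 that were not whole were rounded. The deposited dog scores (mapped bases and a relative abundance of unstated unit) served only to obtain gene lengths: the ratio of reads to abundance, over a constant of 22083782, gave whole lengths (within 0.1 bases) for 100% of 5644 genes above 500 reads. The other tables hold counts per gene that the authors deposited without normalization, per the file headers. Lines of totals were left out, and 0 columns of per-sample values were left unmapped.

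Genes were matched by upper-case symbol occurring once in a table; spreadsheet dates and UniProt entry names were not matched. CPM, log2 folds with a pseudocount of 1 CPM, exact Poisson intervals and exact ratio intervals conditional on both counts were computed (Python 3.11.15, SciPy 1.17.1) and tested on simulated data. With 1 library a species no p-value was computed. No molecular identifiers are mentioned, so reads may be copies of 1 molecule. Every member at 5 CPM or more in at least 1 library is named with its values; of each protease or inhibitor list, up to 4 genes with the largest called folds are named. Members and lists were chosen with earlier results of these data known. The read ratios, and CTSB, were chosen after the values were seen. Neither genome nor protein sequence was used here.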

Additional observations from a re-analysis of the deposited data

How the results depend on the processing

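Each count of called members was recomputed under 7 alternatives. Requiring 2 CPM in both libraries left 4 calls for dog against armadillo, 2 for dog against platypus and 3 for armadillo against platypus. These came from 7, 7 and 6, because 8, 4 and 5 members were then compared. In dog against armadillo, 4 of 8 were higher in armadillo and 0 in dog, against 9.72% and 13.3% of all genes kept. Dog against platypus had 0 of 4 higher in dog and 2 in platypus, against 25.9% and 11.1%. Armadillo against platypus had 2 of 5 higher in armadillo and 1 in platypus, against 22.9% and 14.5%. Leaving out genes at 0 gave 3 calls of 6 members for dog against platypus. Of these, 1 was higher in dog and 2 in platypus, against 28.7% and 13.3% of all genes kept. The other settings kept the counts within 1.5 times. Median-of-ratios scaling (factors 0.797 for dog, 0.997 for armadillo and 1.2 for platypus, over 3490 genes) moved the median log2 fold of all genes by -0.21, -0.36 and -0.18 in the 3 pairs. Of 33 member folds it left 30 with the same direction and side of the limit, brought SERPINH1 past it (-2.24, dog over armadillo), took WFDC1 below it (1.60, dog over platypus) and reversed SERPINE2 between dog and platypus (-0.49). With totals over matched genes SERPINB5 passed the limit (2.05, dog over armadillo), and SPINK4 reached 5 CPM in armadillo. The cause of these changes was not tested, beyond the shift that the factors themselves bring. Leaving out replicates was not possible because each species has 1 library. No paired analysis was possible, because the libraries come from different species. For the 10 members at 0 in platypus, 3 reads, or 1.34 CPM, is what counting error alone allows by the rule used for a count of 0. These were 10 of 19 listed members, where 42.4% of all platypus genes were at 0. In dog 9 of 26 members were at 0, where 21.8% of all dog genes were. These shares include genes that were not matched between tables, whereas members had to be listed in 2. Of the 9026 genes matched between dog and platypus, 2763 were at 0 in platypus and 927 in dog. Of the 8854 matched between dog and armadillo, 522 were at 0 in dog.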

Other observations

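A further 24 names fit the naming rule but occur in 1 table only, so they could not be compared between species: 16 in dog, 5 in armadillo and 3 in platypus. Of these, 14 had 0 reads. SERPINB6, a clade B serpin that lies next to SERPINB9 in dog gene order, had 191 CPM (95% interval 183 to 198) in dog. In armadillo, SERPINB1, an inhibitor of neutrophil elastase, had 38.6 CPM (35.3 to 42.1) and SERPINA3, or alpha-1-antichymotrypsin, 37.8 (34.6 to 41.3), while SERPINA1 (alpha-1-antitrypsin) and SPINK5, a Kazal-type inhibitor of skin, had 146 reads each. In dog, SPINK2 had 23.9 CPM (21.3 to 26.6).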
